A study of Homo sapiens with 12 samples.

Results

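The named antisense RNAs of SUM159 cells were followed here, an established line of triple-negative breast cancer, through the knockdown of the transcription factor E4F1 and treatment with gemcitabine. A gene entered when its symbol ended in -AS and a number and when its mean was 20 or more normalized counts in the authors' deposited table of gemcitabine against untreated shCTRL cells. That left 333 of the 581 genes with such a name, out of 22154 genes in that table, and all 333 stood in all 4 deposited tables. The 12 libraries fell into 4 groups of 3: shE4F1 with gemcitabine, shE4F1 untreated, shCTRL with gemcitabine and shCTRL untreated. shE4F1 is a hairpin against E4F1 and shCTRL a scramble hairpin, and gemcitabine, a deoxycytidine analogue that blocks DNA synthesis, was given at 140 nM for 24 h. All groups are the same line, with 1 hairpin named per arm, and nothing in the labels tells whether replicate libraries stem from different cultures. The p-values thus reflect the scatter among the libraries alone, and that scatter may be technical.

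Antisense RNAs are read from the strand opposite a gene, usually one that codes for a protein, and take that gene's name. Some start beside the gene's own promoter and run away from it, some overlap its body, and a few are known to act on the gene in cis, while for most no function is known. Many are made at low levels and are removed in the nucleus by the RNA exosome. E4F1 is a zinc finger protein that binds promoters of genes for mitochondrial metabolism, cell division and checkpoint signalling.

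Every value below is a mean over the libraries of a table, in normalized counts, or a log2 fold change ± its standard error (SE), from the authors' deposited DESeq2 tables with 3 libraries per arm. "Rose", "fell" and "called" stand for an adjusted p under 0.05 (Benjamini-Hochberg over all genes). Values per library cannot be given, because the columns of the count table carry names that match no label, and no sequencing depth can be stated for a library. The median SE of the antisense RNAs was 0.273 in the untreated knockdown table and 0.233 in the knockdown table under gemcitabine, against 0.242 and 0.206 over all genes. E4F1 itself was 0.503-fold in shE4F1 relative to shCTRL untreated (log2 change -0.99 ± 0.26, adjusted p = 0.000778) and 0.532-fold under gemcitabine (-0.91 ± 0.16, adjusted p = 1.47e-07). Of the 5 mesenchymal markers VIM, CD44, EGFR, FN1 and ZEB1, all had means of 3995 to 70720 in shCTRL cells, while of 7 luminal markers 5 had a row. Of these, CDH1 and ESR1 stood at means of 5.34 and 9.21 in the untreated knockdown table, and KRT8, KRT18 and GATA3 at 2674, 2330 and 402. Of 5 blood markers 1, PTPRC, had a row, and it fell by 2.21 in untreated and by 3.00 in gemcitabine-treated shE4F1 cells. Of 4 endothelial markers 2 had a row untreated and 3 under gemcitabine, and PECAM1 rose by 1.40 and 1.17. TEK (-0.13 untreated and -0.22 under gemcitabine) and VWF (-0.75 under gemcitabine) were not called, at means of 4.62 to 9.48. The part of these markers in the results below was not tested, and in bulk RNA fewer cells of a type cannot be told apart from less RNA per cell.

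The 333 RNAs spanned means of 20.04 to 42039 normalized counts, with a median of 103 and quartiles of 44.2 and 258. Only 18 reached 1000. LRRC75A-AS1 (chr17:16438822-16478678, GRCh38), which carries small nucleolar RNAs in its introns and is now called SNHG29, made up 31.1% of the summed mean. OIP5-AS1 followed with 8927, then FGD5-AS1 with 4317, GABPB1-AS1 with 3666, THAP9-AS1 with 2930 and APCDD1L-AS1 with 2031. At the threshold, ARHGEF26-AS1 (20.04), DEPDC1-AS1 (20.14) and C1QTNF9B-AS1 (20.26) stood just inside, and YEATS2-AS1 (19.96) and TRG-AS1 (19.88) just outside. In at least 1 of the other 3 tables, 41 members had a mean under 20.

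Not all of them are noncoding by annotation. GENCODE release 29 (GRCh38) held 332 of the 333: 227 as antisense, 48 as processed transcripts, 43 as lincRNA and 4 as bidirectional promoter lncRNA. It also gave 5 as protein coding (FAM83H-AS1, MMP24-AS1, NCBP2-AS2, SPTY2D1-AS1 and TOPORS-AS1) and 5 as transcribed pseudogenes (CRYM-AS1, EMC3-AS1, PSMD5-AS1, SRP54-AS1 and SVIL-AS1). RefSeq now uses another symbol for 68 of 331, and 49 of these end in -DT, for divergent transcript.

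A row for the sense gene was found for 303 members, and 302 pairs could be placed. In 132 pairs the 2 loci overlapped at their 5′ ends, with a median of 706.5 bases between starts. Another 62 pairs ran apart without overlap, with a median of 115 bases between starts. In 58 pairs the loci overlapped at their 3′ ends, 35 antisense RNAs lay inside the sense gene, 14 contained it and 1 pair converged without overlap. Starts lay less than 1000 bases apart in 142 pairs, 10000 bases or more apart in 114 and between these in 46.

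Exons of the 2 genes shared bases in 200 pairs, although in only 11 pairs did the overlap reach 50% of the antisense exons. The kit marks strand, but the strand setting of the counting is not given in the sources used here, so in these 200 pairs reads of sense and antisense cannot be told apart with certainty. Per kilobase of exon the antisense RNA was usually the lower partner, with a median antisense to sense ratio of 0.184 in the shCTRL table. It exceeded its sense gene in 65 of 301 pairs and lay below 0.1 of it in 103. VIM-AS1 stood at 0.0131 of vimentin and ENO1-AS1 at 0.0035 of the glycolytic enzyme enolase, while C1QTNF1-AS1 was 5.06 times its partner, a secreted C1q-like protein. Across pairs the 2 levels were nearly unrelated (Spearman's rho 0.058).

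Promoter windows of 300 bases (250 before and 50 after the start, RefSeq, GRCh38.p14) matched 260 members, and in 77 of 216 pairs with both starts the window also held the start of the sense gene. The 5 windows below belong to antisense RNAs on which the results turn: STXBP5-AS1, which rose together with its sense gene, NUP50-AS1 and TRIM52-AS1, which moved against theirs from a shared window, BAIAP2-AS1, with the largest rise under gemcitabine, and CFLAR-AS1, with the largest fall. They lie at chr6:147204565-147204864, chr22:45163732-45164031, chr17:81034670-81034969 and chr2:201157743-201158042 on the minus strand, and for TRIM52-AS1 at chr5:181260962-181261261 on the plus strand. Capitals mark TGACGT, the core of ATF and CREB sites that sites bound by E4F1 share, and CCAAT, the site of NF-Y, on either strand.
STXBP5-AS1: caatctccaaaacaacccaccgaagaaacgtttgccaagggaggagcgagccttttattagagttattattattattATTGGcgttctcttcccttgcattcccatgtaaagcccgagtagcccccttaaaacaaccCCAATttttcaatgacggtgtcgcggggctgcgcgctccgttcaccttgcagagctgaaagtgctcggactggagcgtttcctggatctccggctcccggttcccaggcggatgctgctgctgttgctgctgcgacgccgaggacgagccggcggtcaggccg
NUP50-AS1: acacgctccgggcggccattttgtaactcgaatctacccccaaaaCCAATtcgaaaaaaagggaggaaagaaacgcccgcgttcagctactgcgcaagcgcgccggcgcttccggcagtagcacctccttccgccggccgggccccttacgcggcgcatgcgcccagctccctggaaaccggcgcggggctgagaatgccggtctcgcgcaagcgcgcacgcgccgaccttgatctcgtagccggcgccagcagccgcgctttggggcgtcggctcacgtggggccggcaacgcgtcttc
TRIM52-AS1: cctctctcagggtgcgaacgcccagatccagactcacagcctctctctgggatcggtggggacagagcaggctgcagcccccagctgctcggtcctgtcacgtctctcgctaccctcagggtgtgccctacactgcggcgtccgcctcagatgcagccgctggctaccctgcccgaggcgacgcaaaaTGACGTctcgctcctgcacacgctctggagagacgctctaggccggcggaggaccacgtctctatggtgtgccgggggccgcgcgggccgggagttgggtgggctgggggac
BAIAP2-AS1: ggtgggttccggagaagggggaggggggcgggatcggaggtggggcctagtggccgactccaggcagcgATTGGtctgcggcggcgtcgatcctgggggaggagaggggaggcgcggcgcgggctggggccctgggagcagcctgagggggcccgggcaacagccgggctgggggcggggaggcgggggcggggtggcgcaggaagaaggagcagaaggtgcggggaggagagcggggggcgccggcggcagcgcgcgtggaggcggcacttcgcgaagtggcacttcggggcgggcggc
CFLAR-AS1: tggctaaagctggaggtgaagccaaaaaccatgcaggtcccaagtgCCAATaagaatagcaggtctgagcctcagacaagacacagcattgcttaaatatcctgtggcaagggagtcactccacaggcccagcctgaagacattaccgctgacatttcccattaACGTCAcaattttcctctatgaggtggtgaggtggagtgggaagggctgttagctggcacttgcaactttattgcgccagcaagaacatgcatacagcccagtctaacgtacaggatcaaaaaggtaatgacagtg

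The start of NUP50 lies 144 bases from that of NUP50-AS1 and the start of TRIM52 69 bases from that of TRIM52-AS1, both inside the windows shown. TGACGT or its reverse complement occurred in 37 of the 260 windows (14.2%), against 7.98% of 35116 human promoter windows of the same length. CCAAT, which does not overlap TGACGT in letters, occurred in 34.2% and 34.6%. The antisense windows had a median GC content of 64.7%, against 58.7% over all windows. Of the 37 RNAs with TGACGT, 4 rose and 12 fell in untreated shE4F1 cells, and of the 223 without it 25 rose and 49 fell. Under gemcitabine 13 of the 37 fell, and 78 of the 223. A match of letters is a description and does not show binding.

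In untreated cells the knockdown of E4F1 left more antisense RNAs lower than higher. Of 333, 117 were called (35.1%), 80 lower and 37 higher, beside 36.7% of all 19472 genes tested (19.3% lower, 17.5% higher) and 46.0% of the better measured genes, those at a mean of at least 20. For the better measured genes that mean is taken in the compared table itself, whereas the members were chosen in the table of shCTRL cells. The share that fell (24.0%) was close to the 24.8% of the better measured genes, whereas the share that rose (11.1%) lay below their 21.3%. The median log2 change was -0.16, against -0.04. Among the 106 antisense RNAs with a mean of 200 or more, 43 fell (40.6%) and 12 rose (11.3%), beside 29.4% and 20.3% of all genes at that level. At 50 to under 200, 20.2% fell and 15.5% rose, beside 16.6% and 21.9% of all genes. At 20 to under 50, 11.2% fell and 5.1% rose, beside 8.39% and 13%. Other named long noncoding RNAs, 195 genes of the LINC and SNHG series, had 64 lower and 29 higher, 47.7% called. Changes of 1 or more on the log2 scale were called in 56 of 333 members, 43 of them lower. This stands beside 13.5% of all 19472 genes tested, in either direction and with genes under a mean of 20 included.

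**Figure D1:**
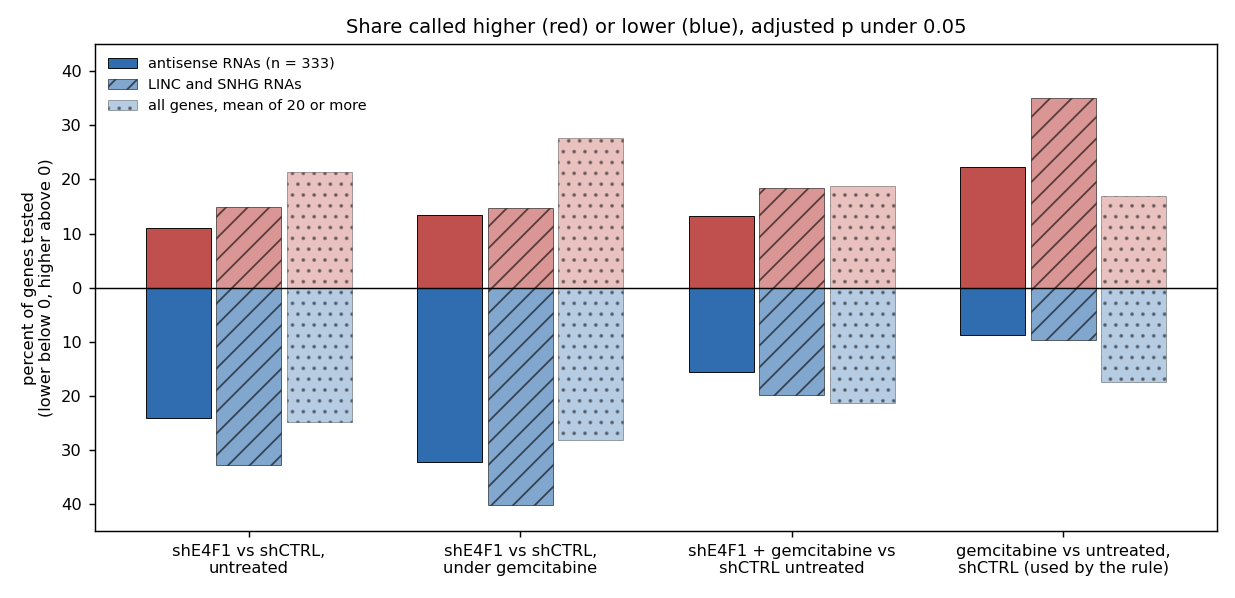
Percent of genes called higher (red, above 0) and lower (blue, below 0) at an adjusted p under 0.05 in the 4 deposited tables, for the 333 antisense RNAs (solid), LINC and SNHG RNAs (hatched) and all genes at a mean of at least 20 (dotted). In both knockdown tables the antisense RNAs had smaller red bars than all genes, 11.1% against 21.3% untreated and 13.5% against 27.7% under gemcitabine.

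The largest falls were in RNAs of low to moderate level. CRYM-AS1 (chr16:21300849-21339037), a pseudogene transcript beside the thyroid hormone-binding crystallin CRYM, was 0.175-fold in shE4F1 cells (log2 change -2.52 ± 0.39, adjusted p = 1.18e-09, mean 38.5). ST7-AS1 fell by 2.01 ± 0.33, and the tumour suppressor candidate ST7 (0.13 ± 0.15) was not called. JHDM1D-AS1 (chr7:140177184-140179640), which starts 149 bases from the histone demethylase gene KDM7A on the other strand, fell by 2.00 ± 0.28, while KDM7A was at -0.06 ± 0.23. YTHDF3-AS1, beside the gene of a reader of methylated adenosine, fell by 1.69 ± 0.42 with YTHDF3 at 0.10 ± 0.14. FOXD3-AS1 fell by 1.57 ± 0.42. Its sense gene, the transcription factor gene FOXD3 (-0.94 ± 0.53, mean 5.33), was not called.

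The rises were fewer. STXBP5-AS1 (chr6:146841901-147204614), opposite the gene of tomosyn, which restrains vesicle fusion, was 3.76-fold in shE4F1 cells (1.91 ± 0.32, adjusted p = 2.05e-08), and STXBP5 rose by 0.76 ± 0.14. FBXL19-AS1 (chr16:30919319-30923269), opposite an F-box protein gene, rose by 1.63 ± 0.20 with FBXL19 at 0.27 ± 0.18. C1QTNF1-AS1 rose by 1.61 ± 0.25 and CYP4A22-AS1 by 1.54 ± 0.26. KIF9-AS1 rose by 1.40 ± 0.23, against -0.40 ± 0.19 for the kinesin gene KIF9, which was not called. SLC39A12-AS1 rose by 1.19 ± 0.25, and NOVA1-AS1 rose by 1.23 ± 0.34 together with the splicing regulator NOVA1 (1.71 ± 0.30). BAIAP2-AS1 (chr17:81029130-81034881), whose window is printed above, rose by 1.22 ± 0.20, more than BAIAP2 (0.46 ± 0.16), a gene for a protein that bends membranes at actin protrusions.

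The 10 most abundant members had smaller changes than those above. LRRC75A-AS1 fell by 0.33 ± 0.13 (adjusted p = 0.0341). OIP5-AS1, also known as cyrano, rose by 0.77 ± 0.14 and FGD5-AS1 by 0.48 ± 0.15. THAP9-AS1 fell by 0.85 ± 0.18 and UBA6-AS1, beside a ubiquitin-activating enzyme gene, by 0.87 ± 0.18. GABPB1-AS1 (0.28 ± 0.19), APCDD1L-AS1 (-0.21 ± 0.18), OTUD6B-AS1 (0.27 ± 0.14), EPB41L4A-AS1 (-0.86 ± 0.43) and SVIL-AS1 (-0.05 ± 0.14) were not called.

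Under gemcitabine the knockdown called more members, again mostly lower. Of 333, 152 were called (45.6%), 107 lower and 45 higher, beside 41.0% of all 22433 genes tested (20.8% lower, 20.3% higher) and 56.0% of the better measured genes. The share that fell was 32.1%, against 28.2% of the better measured genes, and the share that rose 13.5%, against 27.7%. The median log2 change was -0.19, against 0.01. Among members with a mean of 200 or more 50 fell (47.2%) and 12 rose (11.3%), beside 31.3% and 29.9% of all genes at that level. At 50 to under 200, 28.7% fell and 17.8% rose, beside 25.5% and 23.2% of all genes. At 20 to under 50, 20.4% fell and 10.2% rose, beside 18.2% and 13.3%. The members were chosen on their mean in a table of shCTRL libraries, which lets in RNAs that are high there and low in shE4F1 cells. Among the 292 members with a mean of 20 or more in all 4 tables, 91 were lower and 45 higher under gemcitabine, and 74 lower and 37 higher untreated. The LINC and SNHG RNAs had 79 lower and 29 higher of 197. Changes of 1 or more on the log2 scale were called in 60 of 333 members, beside 13.6% of all 22433 genes tested.

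CFLAR-AS1 (chr2:201140278-201157823), inside the gene of the caspase-8 inhibitor FLIP, was 0.156-fold in shE4F1 relative to shCTRL cells (-2.68 ± 0.28, adjusted p = 2.53e-20). RBMS3-AS2, inside the gene of an RNA-binding protein, fell by 2.46 ± 0.28, LURAP1L-AS1 by 2.29 ± 0.27 and ENO1-AS1 by 2.08 ± 0.41. VIM-AS1 (chr10:17214239-17229985), opposite the vimentin gene, was 0.207-fold (-2.27 ± 0.18, adjusted p = 3.7e-35), and it had fallen by 0.68 ± 0.26 untreated, as LURAP1L-AS1 had by 1.09 ± 0.39. Vimentin mRNA was at -0.01 ± 0.10 under gemcitabine, whereas untreated it fell by 0.40 ± 0.14, the same way as VIM-AS1. YTHDF3-AS1 fell by 1.92 ± 0.34, PTPRG-AS1 by 1.83 ± 0.16 and NEXN-AS1, beside an actin-binding protein gene, by 1.77 ± 0.38. Of these 8, CFLAR-AS1, RBMS3-AS2, ENO1-AS1 and NEXN-AS1 were called under gemcitabine and not untreated. CFLAR-AS1, ENO1-AS1 and NEXN-AS1 had means under 20 in the untreated knockdown table (16.8, 8.69 and 6.67) and entered through their level in the table with gemcitabine-treated shCTRL cells. Their fall against those cells is therefore partly fixed by the choice of members.

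Of the 8 largest rises, 4 had also been among the 8 largest untreated: BAIAP2-AS1, KIF9-AS1, FBXL19-AS1 and STXBP5-AS1. BAIAP2-AS1 was 3.60-fold (1.85 ± 0.16, adjusted p = 2.35e-29), with BAIAP2 at 0.07 ± 0.12. KIF9-AS1 rose by 1.77 ± 0.20, FBXL19-AS1 by 1.63 ± 0.20 and STXBP5-AS1 by 1.42 ± 0.24. MBNL1-AS1, inside the gene of a splicing regulator, rose by 1.30 ± 0.17 and ACVR2B-AS1, beside an activin receptor gene, by 1.30 ± 0.29. SLC25A25-AS1 rose by 1.29 ± 0.20 and SH3BP5-AS1 by 1.20 ± 0.22. MBNL1 (0.74 ± 0.09) and ACVR2B (1.26 ± 0.13) rose with their antisense RNAs, whereas SLC25A25, a mitochondrial carrier of adenine nucleotides, fell by 1.31 ± 0.11.

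The knockdown tables share no library, so their values can be set against each other. Over the 333 RNAs the log2 changes had a Pearson r of 0.70 and a Spearman rho of 0.72, against 0.81 and 0.79 over the 14346 better measured genes, as a description. Both tables called 57 members lower and 28 higher, and 0 in opposite directions. The overlap was not counted over all genes. Of the better measured genes 46.0% were called untreated and 56.0% under gemcitabine. Another 67 were called only under gemcitabine and 32 only untreated, which does not show that the effects differ. The test of that difference follows further on.

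**Figure D2:**
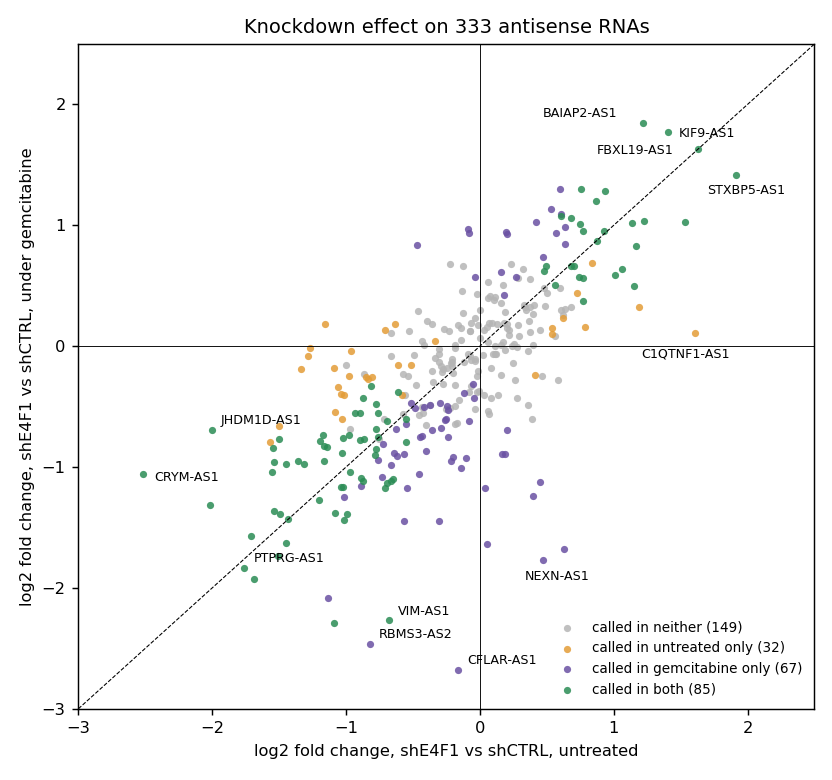
Log2 fold change of each of the 333 antisense RNAs in shE4F1 against shCTRL cells, untreated on the x axis and under gemcitabine on the y axis, coloured by the tables in which it was called, with the dashed line at equal change. The 85 RNAs called in both lie in the lower left or upper right quadrant, and CFLAR-AS1, RBMS3-AS2, VIM-AS1 and NEXN-AS1 lie far below the line.

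shE4F1 cells under gemcitabine were also compared with untreated shCTRL cells, a table that shares the untreated shCTRL libraries with the untreated knockdown table. It called 96 members (28.8%), 44 higher and 52 lower, or 46 higher and 45 lower with all changes centred on the median of the better measured genes, beside 32.2% of all genes tested (15.8% higher, 16.3% lower) and 40.0% of the better measured ones. Changes of 1 or more were called in 34 of 333 members, beside 12% of all genes tested. C1QTNF1-AS1 rose most (2.96 ± 0.22, adjusted p = 1.71e-39), followed by STXBP5-AS1 (2.23 ± 0.30), PSMB8-AS1 (1.91 ± 0.18), C1QTNF9B-AS1 (1.79 ± 0.41), FBXL19-AS1 (1.77 ± 0.23), KIF9-AS1 (1.45 ± 0.23), SLC39A12-AS1 (1.31 ± 0.25) and HLA-F-AS1 (1.21 ± 0.24). PSMB8-AS1 and HLA-F-AS1 lie beside genes of antigen presentation, and HLA-F rose too (1.51 ± 0.23), whereas PSMB8 fell by 0.64 ± 0.15. Among the largest falls were JHDM1D-AS1 (-2.17 ± 0.28), ST7-AS1 (-1.85 ± 0.32), VPS9D1-AS1 (-1.69 ± 0.24), CRYM-AS1 (-1.69 ± 0.35), AGAP2-AS1 (-1.63 ± 0.29), YTHDF3-AS1 (-1.51 ± 0.41) and ST3GAL6-AS1 (-1.34 ± 0.29).

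Antisense RNA and sense gene changed together in some pairs and against each other in others. In the 297 pairs tested untreated, 37 had both genes called in the same direction (11 higher, 26 lower) and 16 in opposite directions, of which 6 had the antisense RNA higher. In 51 pairs the antisense RNA alone was called, in 94 the sense gene alone and in 99 neither. Under gemcitabine, of 301 pairs, 46 moved the same way (15 higher, 31 lower) and 35 opposite ways, 26 of these with the antisense RNA lower and the sense gene higher. The sense genes were called in 147 pairs untreated (65 higher, 82 lower) and in 168 under gemcitabine (82 higher, 86 lower). Of all 333 antisense RNAs 107 fell and 45 rose under gemcitabine. Whether 26 pairs exceed what these shares give for unrelated partners was not tested. The choice of members on shCTRL libraries also lets in RNAs that are high there and low in shE4F1 cells. Across pairs the log2 changes of antisense RNA and sense gene had a Pearson r of 0.17 untreated and 0.10 under gemcitabine, as a description.

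**Figure D3:**
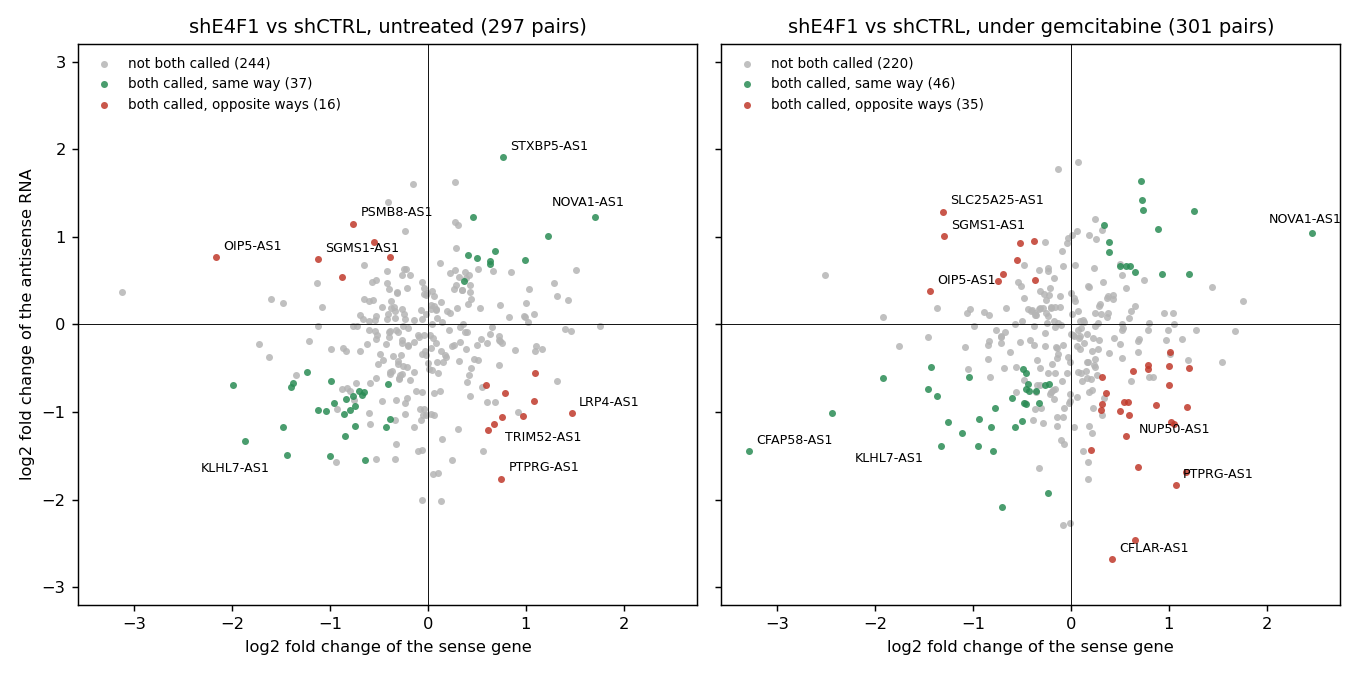
Log2 fold change of the antisense RNA (y axis) against that of its sense gene (x axis) in shE4F1 against shCTRL cells, untreated (left, 297 pairs) and under gemcitabine (right, 301 pairs), each point 1 pair. Pairs with both genes called the same way (green, 37 and 46) and opposite ways (red, 16 and 35) both occur. The lower right quadrant of the right panel holds 26 of the 35 opposite pairs, where 107 of all 333 antisense RNAs fell and 45 rose.

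The pairs called in opposite ways are given with the difference between partners, which their choice makes large, so the intervals describe its precision and test nothing. The difference is the log2 change of the antisense RNA minus that of the sense gene, with an unadjusted 95% interval that takes the 2 as independent. OIP5-AS1 (chr15:41283990-41309737) rose by 0.77 ± 0.14 untreated while OIP5, which helps to mark centromeres, fell by 2.16 ± 0.19, a difference of 2.93 (2.48 to 3.39). PTPRG-AS1 (chr3:62260865-62369330) fell by 1.76 ± 0.27 and the receptor phosphatase PTPRG rose by 0.75 ± 0.14, a difference of -2.51 (-3.11 to -1.91). PSMB8-AS1 (chr6:32844086-32846495) rose by 1.15 ± 0.17 while PSMB8, an immunoproteasome subunit, fell by 0.76 ± 0.14. SGMS1-AS1 (chr10:50624951-50641451) rose by 0.75 ± 0.20 and the sphingomyelin synthase SGMS1 fell by 1.12 ± 0.14. TRIM52-AS1 (chr5:181261212-181272307) fell by 1.14 ± 0.20 while TRIM52 rose by 0.68 ± 0.17, from starts 73 bases apart in GENCODE. In the other named pairs, LRP4-AS1, USP2-AS1, DNAJC27-AS1, FOXN3-AS1 and TCEB3-AS1 fell by 0.87 to 1.21 and their sense genes rose by 0.61 to 1.47. OIP5-AS1, PTPRG-AS1, PSMB8-AS1 and SGMS1-AS1 share 470, 1211, 618 and 207 exon bases with their partners, and TRIM52-AS1 shares 0.

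Under gemcitabine these directions recurred for OIP5-AS1 (0.38 ± 0.10 against -1.44 ± 0.16), PTPRG-AS1 (-1.83 ± 0.16 against 1.07 ± 0.14), SGMS1-AS1 (1.01 ± 0.21 against -1.30 ± 0.10) and PSMB8-AS1 (0.50 ± 0.13 against -0.74 ± 0.11). CFLAR-AS1 fell by 2.68 ± 0.28 while CFLAR rose by 0.42 ± 0.12, a difference of -3.10 (-3.70 to -2.51). SLC25A25-AS1 and SLC25A25 differed by 2.60 (2.15 to 3.04). NUP50-AS1 (chr22:45133020-45163781) fell by 1.04 ± 0.16 while the nuclear pore gene NUP50 rose by 0.60 ± 0.10, and untreated it had fallen by 1.55 ± 0.23 with NUP50 at 0.25 ± 0.13. The 2 genes run apart without exon overlap. RBMS3-AS2, PRICKLE2-AS3, SLC25A21-AS1, ZMIZ1-AS1, DNAJC27-AS1 and ATP6V1B1-AS1 fell by 0.94 to 2.46 and their sense genes rose by 0.66 to 1.19. CFLAR-AS1 and PRICKLE2-AS3 had means under 20 in the untreated knockdown table. They entered through the table with gemcitabine-treated shCTRL cells, so their falls against those cells are partly fixed by the choice of members. In the table of shE4F1 under gemcitabine against shCTRL untreated only 7 pairs moved opposite ways: those of PSMB8, OIP5, SGMS1, THUMPD3, USP2, MMP24 and MAPKAPK5.

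The pairs were also counted by the position of the loci. Of the 62 pairs that run apart without overlap, 9 moved the same way and 5 opposite ways untreated, and 14 and 6 under gemcitabine. Of pairs that overlap at the 3′ ends, 4 moved the same way and 5 opposite ways untreated, and 6 and 10 under gemcitabine. For starts less than 1000 bases apart the counts were 25 and 9 untreated and 28 and 16 under gemcitabine, and for starts 10000 bases or more apart 9 and 6, and 13 and 16. No test of these counts was made. Of the antisense RNAs in the 62 divergent pairs, 23 fell (37.1%) and 6 rose untreated, at a median of -0.36. Under gemcitabine 25 fell (40.3%) and 9 rose, at a median of -0.24. Over all 333, 24.0% fell untreated and 32.1% under gemcitabine. Of the 58 that overlap at the 3′ ends 11 fell (19.0%) and 8 rose untreated, at a median of -0.26. Under gemcitabine 23 of these fell (39.7%) and 9 rose, at a median of -0.41. Of the 132 that overlap at the 5′ ends 25.8% fell untreated and 31.1% under gemcitabine. No test against the other members was made.

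**Figure D4:**
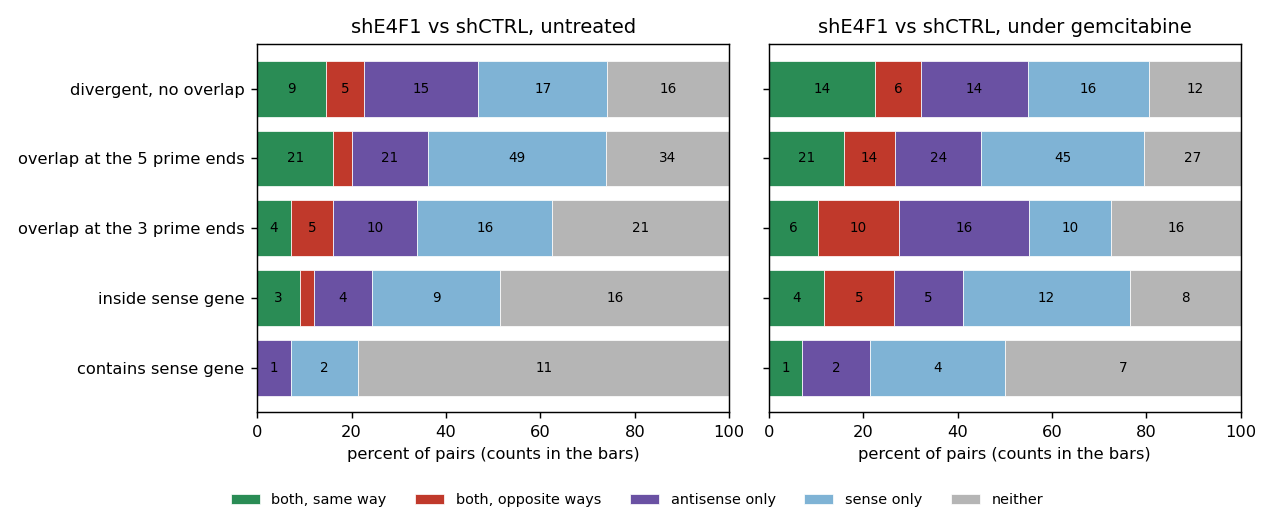
Percent of antisense and sense pairs by call in shE4F1 against shCTRL cells (counts written in the bars), for 5 arrangements of the loci, untreated on the left and under gemcitabine on the right. Divergent pairs had 14 same-way and 6 opposite pairs under gemcitabine, and pairs overlapping at the 3′ ends had 6 and 10.

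Examples of pairs that moved together were chosen after their values were seen. KLHL7-AS1 starts 55 bases from KLHL7, a substrate adaptor of a ubiquitin ligase, and fell by 1.50 ± 0.23 untreated and 1.39 ± 0.16 under gemcitabine, with KLHL7 at -1.44 ± 0.16 and -1.32 ± 0.12. SGO1-AS1 fell by 0.99 ± 0.25 and 1.39 ± 0.19, and SGO1, which protects sister chromatid cohesion, by 1.05 ± 0.19 and 0.94 ± 0.12. LPP-AS2 rose by 1.01 ± 0.23 and 0.59 ± 0.21, with LPP, a focal adhesion protein gene, at 1.23 ± 0.17 and 0.66 ± 0.11.

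The antisense RNAs were also grouped by the role of the sense gene, in groups assigned by hand. Over all 333, 24.0% fell and 11.1% rose untreated, and 32.1% and 13.5% under gemcitabine, and no group was tested against the others. In the group of cell cycle and DNA genes, of 18, 8 fell and 2 rose untreated (median -0.76), and again 8 and 2 under gemcitabine (median -0.55), beside medians of -0.16 and -0.19 over all 333. In shE4F1 under gemcitabine against shCTRL untreated the median of this group was -0.14, with 4 lower and 3 higher. The 8 that fell untreated include NUP50-AS1, placed here although NUP50 is a nuclear pore gene, GTSE1-AS1 (-1.17 ± 0.44), SGO1-AS1, PAXIP1-AS1 (-0.89 ± 0.20) and DNAJC9-AS1 (-0.78 ± 0.18), and those that rose were OIP5-AS1 and PAXIP1-AS2 (1.06 ± 0.21). Without NUP50-AS1, 7 of 17 fell in each table, at medians of -0.73 untreated and -0.55 under gemcitabine. Of 54 RNAs named for transcription and chromatin genes 16 fell (29.6%) and 5 rose untreated, and 13 (24.1%) and 6 under gemcitabine. Of 48 named for metabolic enzymes and transporters 10 fell (20.8%) and 7 rose untreated, and 17 (35.4%) and 4 under gemcitabine. For the 45 of signalling genes the counts were 9 and 5, and 16 (35.6%) and 7. For the 34 of RNA processing and translation they were 8 and 4, and 8 and 5. Of the 26 of ubiquitin and chaperone genes 7 fell and 3 rose, and 9 and 7 did under gemcitabine. The 27 of cytoskeleton and adhesion genes had 6 and 2, and 10 and 2, and the 16 of membrane traffic genes 3 and 3, and 5 and 3. The remaining 65 had no role assigned, with 13 falling and 6 rising untreated and 21 and 9 under gemcitabine.

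Antisense RNAs that share a sense gene name did not always move together. Such names were shared by 11 members, in 5 groups. PAXIP1-AS1 and PAXIP1-AS2, ahead of the 5′ end and over the 3′ end of the gene of a DNA damage response protein, moved in opposite directions in both knockdown tables, -0.89 ± 0.20 and 1.06 ± 0.21 untreated and -0.56 ± 0.18 and 0.64 ± 0.18 under gemcitabine, while PAXIP1 was not called (-0.23 ± 0.16 and -0.23 ± 0.12). RBMS3-AS2 fell under gemcitabine and RBMS3-AS3 was not called (0.20 ± 0.27). DLGAP1-AS2 fell by 1.08 ± 0.28 untreated and 1.38 ± 0.17 under gemcitabine, and DLGAP1-AS1 only under gemcitabine, by 0.68 ± 0.17. HOXC-AS1 and HOXC-AS2 fell untreated, by 1.50 ± 0.45 and 1.28 ± 0.48, at means of 16.2 and 13.2, and HOXC-AS3 was not called. PTOV1-AS1 and PTOV1-AS2 were called in neither knockdown table.

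Genes of the machinery that removes or ends such transcripts all had means over 200. Of all genes at that level 29.4% fell and 20.3% rose untreated, and 31.3% and 29.9% under gemcitabine. Of 19 genes of the nuclear exosome and its NEXT and PAXT adaptors, 9 fell (47.4%) and 1 rose untreated (median -0.42), and 10 fell (52.6%) and 0 rose under gemcitabine (median -0.30). RBM7, the RNA-binding subunit of NEXT, fell by 2.25 ± 0.16 and 2.47 ± 0.12. The exosome ring subunit EXOSC6 fell by 1.50 ± 0.15 and 1.31 ± 0.11, and EXOSC8 by 1.45 ± 0.17 and 0.62 ± 0.11. ZFC3H1, the scaffold of PAXT, rose by 0.90 ± 0.13 untreated and was at 0.28 ± 0.16 under gemcitabine. Of 28 genes of Integrator and of transcription termination 11 fell (39.3%) and 4 rose untreated, and 10 (35.7%) and 6 under gemcitabine. Of 10 genes of cap binding and early termination with a row, 2 fell and 1 rose, and 2 and 2. The part of these genes in the levels of the antisense RNAs was not tested.

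Whether gemcitabine changed the effect of the knockdown was tested by the difference between the 2 knockdown tables, under gemcitabine minus untreated, with summed variances and a normal test adjusted over 20926 genes. It called 16 members (4.80%), 11 with a negative and 5 with a positive difference, beside 5.43% of all genes tested (2.63% negative, 2.81% positive) and 7.46% of the better measured genes. CFLAR-AS1 differed most (-2.51 ± 0.52, adjusted p = 0.000167), at -2.68 ± 0.28 under gemcitabine and -0.16 ± 0.44 untreated. VIM-AS1 differed by -1.59 ± 0.31 (adjusted p = 5.99e-05) and TPRG1-AS1 by -1.63 ± 0.35 (adjusted p = 0.000276). C1QTNF1-AS1 differed by -1.49 ± 0.29 (adjusted p = 4.81e-05): it rose in untreated shE4F1 cells and was at 0.11 ± 0.14 under gemcitabine. PRICKLE2-AS3, NEXN-AS1, CCDC144NL-AS1, RBMS3-AS2 and PAX8-AS1 had differences of -2.31 to -1.57. JHDM1D-AS1 (1.31 ± 0.40), PRKCQ-AS1 (1.30 ± 0.43) and SLC7A11-AS1 (1.25 ± 0.40), beside the genes of a histone demethylase, a protein kinase C and the cystine transporter, had positive ones.

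The sense gene was also called in the difference for JHDM1D-AS1 (KDM7A, 1.06), SLC7A11-AS1 (SLC7A11, 1.09) and NEXN-AS1 (NEXN, -1.11), in each case with the same sign, and for TRAM2-AS1 (TRAM2, -0.64) with the other. It was not for CFLAR (-0.12), VIM (0.39), RBMS3 (0.23), PRICKLE2 (-0.33), C1QTNF1 (-0.20), TPRG1 (-0.13), PAX8 (-0.72) and CCDC144NL (0.21). Of the 16 members, 5 had a mean under 20 in the untreated knockdown table, between 6.67 and 18.7. They are CFLAR-AS1, PRICKLE2-AS3, NEXN-AS1, CCDC144NL-AS1 and PAX8-AS1, and they entered through the higher level of the table that chose the members. Without such low members 11 were called, 5 positive and 6 negative. With all changes centred on the median of the better measured genes, a shift of 0.06, 14 were called, 2 positive and 12 negative.

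**Figure D5:**
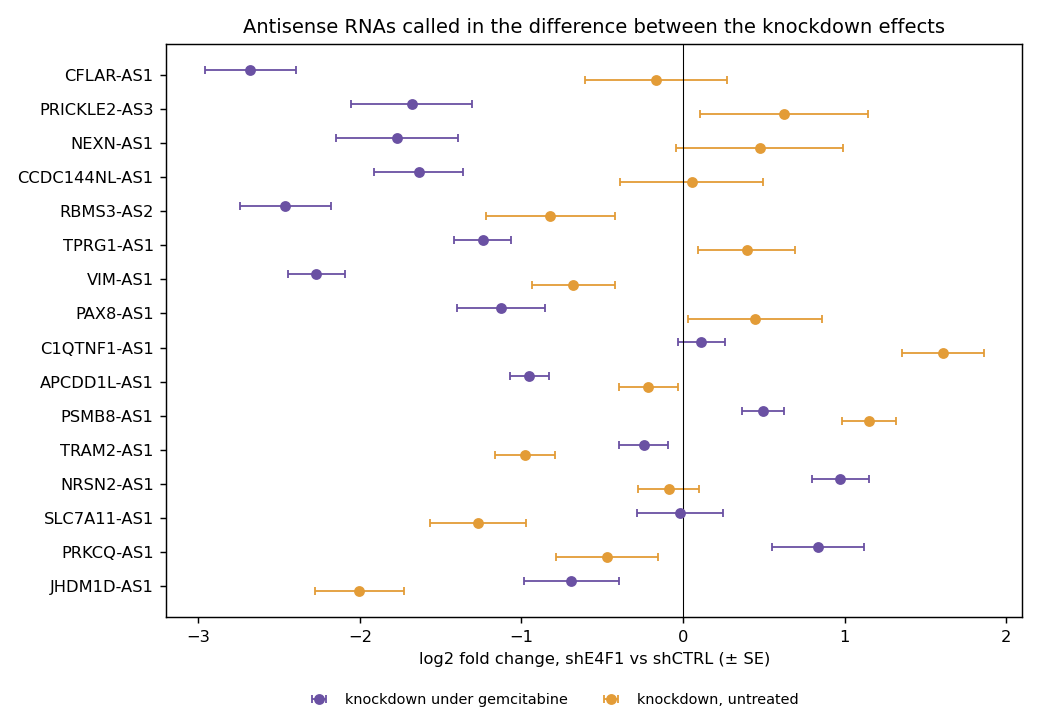
Log2 fold change ± SE in shE4F1 against shCTRL cells under gemcitabine (purple) and untreated (orange) for the 16 antisense RNAs called in the difference between the 2. CFLAR-AS1, PRICKLE2-AS3 and NEXN-AS1 show the widest gaps, with the purple points at -2.68, -1.68 and -1.77.

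Gemcitabine itself in shCTRL cells is the comparison whose table chose the members, so its values are given as a description. It called 103 members (30.9%), 74 higher and 29 lower, beside 28.0% of all genes tested (14.5% higher, 13.5% lower) and 34.5% of the better measured ones. At a mean of 20 to under 50, 17.3% rose and 4.08% fell, beside 19% and 4.65% of all genes. At 50 to under 200, 21.7% rose and 10.9% fell, beside 25% and 9.76%. At 200 or more, 27.4% rose and 10.4% fell, beside 14.9% and 21.3%. Of the 197 LINC and SNHG RNAs 35% rose and 9.64% fell. Of all 333, 38 were called with a log2 change of 1 or more in either direction, beside 8.69% of all genes tested. CFLAR-AS1 had the highest log2 change, 3.01 ± 0.30, followed by C1QTNF1-AS1 (2.80 ± 0.22), NEXN-AS1 (2.34 ± 0.38), CCDC144NL-AS1 (2.22 ± 0.30), PRICKLE2-AS3 (2.21 ± 0.38), PAX8-AS1 (2.09 ± 0.31) and TPRG1-AS1 (1.97 ± 0.23). VIM-AS1 was at 1.03 ± 0.20 and RBMS3-AS2 at 1.80 ± 0.29. The lowest was JHDM1D-AS1 (-1.43 ± 0.26). All 11 members with a negative difference between the knockdown effects had a positive gemcitabine value in shCTRL cells. The same shCTRL libraries enter both, so this is no independent result.

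In shE4F1 cells no deposited table compares gemcitabine with no treatment, and the effect was taken as the table of both minus the untreated knockdown table. Its SE is too large, because the untreated shCTRL libraries are counted in both. It called 4 members (1.20%), all higher, beside 1.11% of all 21085 genes tested (0.925% higher): C1QTNF1-AS1 (1.36 ± 0.33, adjusted p = 0.00727), PTPRG-AS1 (1.40 ± 0.35, adjusted p = 0.0106), UBL7-AS1 (1.21 ± 0.33, adjusted p = 0.0301) and SLC16A1-AS1 (0.98 ± 0.27, adjusted p = 0.0369). PTPRG-AS1 stood at 1.45 ± 0.18 in shCTRL cells, and C1QTNF1-AS1 at 2.80 ± 0.22.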

How the data were processed

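RNA of 12 libraries (4 groups of 3) was sequenced, per the labels, as stranded mRNA and in reads of 50 bases from 1 end. The submitters' processing notes name, with no order, R 3.4.0, DESeq2 1.14.1, HTSeq 0.9.0, TopHat2 2.1.1, Bowtie2 2.2.9 and the build GRCh38.p7. How reads were assigned by strand, which annotation was used and what was filtered is not given in the sources used here. Per the file headers, the authors' deposited tables give a mean of normalized counts (a signal per gene), a log2 fold change with its SE, a Wald score and a p-value with its adjusted p-value. No header records whether log2 fold changes were moderated towards 0, which would understate those of low genes. The 12 columns of the deposited count table match no label and were not used, so no edgeR test and no depth per library was possible.

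From these tables the members, their sense genes (by symbol, or by RefSeq synonym for 3), the differences between tables and all counts were computed with Python 3.11.15, numpy 2.4.6, pandas 2.3.3 and scipy 1.17.1. The difference between the knockdown tables was checked on simulated data, with independent normal noise at the deposited SEs, as its test assumes. This checks the computation and cannot show how well the test holds in these data. The derived gemcitabine effect in shE4F1 cells was not simulated. A gene was called at an adjusted p under 0.05. Loci are from GENCODE release 29 on GRCh38 and promoters from RefSeq on GRCh38.p14. The authors' annotation may differ. Named genes were the 10 members with the highest mean, the 8 largest called rises and falls in each table with the knockdown, up to 12 called in the difference between knockdown effects, up to 10 opposite pairs per table and those beside the threshold. Some genes that this rule names are not reported here. Members, lists and tests were chosen with earlier results of these data known. Alternatives changed the mean minimum, the adjustment, the p threshold, a fold minimum, the centring, the table used and the pairs kept.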

Additional observations from a re-analysis of the deposited data

Results flagged for a closer look

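In 16 antisense RNAs the effect of the E4F1 knockdown differed between gemcitabine-treated and untreated cells by the normal test on the difference of the 2 deposited log2 fold changes, adjusted by Benjamini-Hochberg over all genes. As log2 differences, under gemcitabine minus untreated, they were -2.51 for CFLAR-AS1, -2.31 for PRICKLE2-AS3, -2.24 for NEXN-AS1, -1.69 for CCDC144NL-AS1, -1.64 for RBMS3-AS2, -1.63 for TPRG1-AS1, -1.59 for VIM-AS1, -1.57 for PAX8-AS1, -1.49 for C1QTNF1-AS1, -0.74 for APCDD1L-AS1 and -0.65 for PSMB8-AS1. Positive differences were 0.74 for TRAM2-AS1, 1.06 for NRSN2-AS1, 1.25 for SLC7A11-AS1, 1.30 for PRKCQ-AS1 and 1.31 for JHDM1D-AS1. For TRAM2-AS1 the sense gene TRAM2 had a difference of the other sign (-0.64, adjusted p = 0.0406). CFLAR-AS1, PRICKLE2-AS3, NEXN-AS1, CCDC144NL-AS1 and PAX8-AS1 had means under 20 in the untreated knockdown table and entered through their level in the table of shCTRL cells with gemcitabine, whose libraries are also in the difference. Of the members with a mean of 20 or more in every table, 11 were called, 5 positive and 6 negative.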

How the results depend on the processing

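No paired analysis was possible because the deposited tables hold no values per library and the count columns carry no replicate number or name that matches a label. For the same reason the fits without each replicate, with the replicate block and with edgeR were not run. Requiring a log2 change of 1 or more left 56 antisense RNAs called in the untreated knockdown, 60 in the knockdown under gemcitabine, 34 in shE4F1 under gemcitabine against shCTRL untreated and 38 for gemcitabine in shCTRL cells. An adjusted p under 0.01 left 63 in shE4F1 under gemcitabine against shCTRL untreated, 5 in the difference between knockdown effects and 1 for gemcitabine in shE4F1 cells. Values built from the other 2 tables, whose summed variances are larger by construction, called 63, 55 and 42 for the knockdown under gemcitabine, for shE4F1 under gemcitabine against shCTRL untreated and for gemcitabine in shCTRL cells. With both genes at a mean of 50 or more, 29 pairs moved the same way and 28 opposite ways under gemcitabine, against 46 and 35 without that limit. Untreated the counts were 27 and 13, against 37 and 16. Pairs whose loci do not overlap, which are fewer, gave 9 same and 5 opposite untreated, 14 and 6 under gemcitabine, and 8 and 1 in shE4F1 under gemcitabine against shCTRL untreated. Among single RNAs, ATP6V1B1-AS1 (adjusted p = 0.246), NEXN-AS1 (0.0529) and PRICKLE2-AS3 (0.0707) were not called in the knockdown under gemcitabine from the other 2 tables. PRKCQ-AS1 (0.0628) and SLC7A11-AS1 (0.0537) were not called in the difference after centring. THUMPD3-AS1 in shE4F1 under gemcitabine against shCTRL untreated was lost with adjustment over all genes (0.0503) and from the other 2 tables (0.139). No named RNA changed direction in the alternatives run, but centring turned the split of shE4F1 under gemcitabine against shCTRL untreated to 46 higher and 45 lower, against 44 and 52. The lowest members were called least often. In the untreated knockdown 16.3% of those with a mean of 20 to under 50 were called, against 51.9% of those at 200 or more, at median SEs of 0.399 and 0.193. Of all genes at these levels 21.4% and 49.7% were called.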
